A study of Mus musculus with 12 samples.

Results

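The 3 arrays described here carried more yolk sac RNA for several placental hormones of the prolactin family than the other arrays of their groups. Of 10 measured members 5 were at least 2-fold higher on all 3, beside 0.0344% of all genes. The 5 include Prl4a1, which chose the arrays. Without it and 2 members that passed the signal filter only through these arrays, the count was 4 of 7. The chosen arrays were replicate 3 of the mutant at E8.5, of the wild type at E9.5 and of the mutant at E9.5. They are 3 of the 12 arrays of the series. They were chosen by the log2 ratio of yolk sac to reference signal at the probe of Prl4a1 (named Prlpa on the array), which had to be above 3 after background correction and loess normalization. The chosen arrays read 5.70, 4.31 and 3.74. The other 9 read 0.26 to 1.53, and the value just outside was that of wild-type E8.5 replicate 3. The deposited log10 ratio, put on the log2 scale, was above 3 at this probe on 11 of the 12 arrays, so the same threshold on that scale does not separate these 3. Because measured values chose the arrays, differences between them and the rest are given as a description, without a test.

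The study compared yolk sacs of wild-type embryos with those of Baf250a/Arid1a V1068G/V1068G homozygotes, both on a CD1 background, at E8.5 and E9.5. Arid1a, also called Baf250a, is an ARID-domain protein of SWI/SNF, a complex that moves nucleosomes, and the allele is a point mutation. Each of the 4 groups had 3 biological replicates. Yolk sac RNA (500 ng) was labelled with Cy5 and hybridised against a Cy3-labelled reference of whole neonatal wild-type mice of mixed 129Sv and C57BL/6 background, the same on every array. The sources used here do not say whether 1 RNA came from 1 yolk sac or from a pool.

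The arrays were scanned in 3 sets of 4, each set holding 1 array of each group and 1 replicate number. The sets were read from the scan records, because the file headers give scan sets 2 and 3 the same slide number. All 3 chosen arrays were in scan set 3, whose other array, wild-type E8.5 replicate 3, was not chosen and is shown beside them throughout. Between 46.7% and 50.1% of probes were well above background in Cy5 on each array. Visceral endoderm genes, which mark the yolk sac itself, averaged a log2 ratio of 0.99 to 1.30 on the chosen arrays and 0.87 to 1.31 on the others, over 23 genes.

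In the mouse, trophoblast giant cells surround the conceptus and lie just outside the parietal yolk sac. They secrete a large family of hormones related to pituitary prolactin, encoded by a gene cluster that expanded in rodents. Placental lactogen I (Prl3d1, Prl3d2) acts on the maternal prolactin receptor, the proliferins (Prl2c genes) act on blood vessels, and the prolactin-like proteins include Prl4a1, which binds uterine natural killer cells. Another member, Prl8a2, is the hormone of the maternal decidua, and Prl3b1, placental lactogen II, follows placental lactogen I later in gestation. The yolk sac itself is not known as a source of these hormones.

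The promoters of the 4 marker genes are shown because these genes were high together on the same arrays. Each run is the 250 bases before the annotated start, from RefSeq on GRCm38.p6, and all lie on chromosome 13. Prl4a1 is at chr13:28015962-28016211 on the plus strand, Prl3d1 at chr13:27093939-27094188 on the plus strand, Prl2c3 at chr13:12800080-12800329 on the minus strand, and Prl7a1 at chr13:27642494-27642743 on the minus strand. Capitals mark 3 motifs, searched on both strands: TATATANGAGGT, a TATA-like element, GATAA, the core of GATA factor sites, and TGANTCA, the AP-1 site.
Prl4a1: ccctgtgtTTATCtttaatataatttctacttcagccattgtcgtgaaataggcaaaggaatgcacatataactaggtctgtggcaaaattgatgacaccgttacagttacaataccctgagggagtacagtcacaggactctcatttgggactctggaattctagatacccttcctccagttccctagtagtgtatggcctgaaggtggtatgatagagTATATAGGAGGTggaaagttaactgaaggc
Prl3d1: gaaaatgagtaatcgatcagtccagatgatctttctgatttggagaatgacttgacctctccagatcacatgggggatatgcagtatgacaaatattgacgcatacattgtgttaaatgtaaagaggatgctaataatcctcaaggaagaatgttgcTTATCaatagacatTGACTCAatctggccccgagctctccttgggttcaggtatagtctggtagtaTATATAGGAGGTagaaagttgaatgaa
Prl2c3: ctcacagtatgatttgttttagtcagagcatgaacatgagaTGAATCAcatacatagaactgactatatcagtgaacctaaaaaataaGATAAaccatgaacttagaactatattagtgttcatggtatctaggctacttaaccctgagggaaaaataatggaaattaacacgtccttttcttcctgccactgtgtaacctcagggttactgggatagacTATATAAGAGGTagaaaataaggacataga
Prl7a1: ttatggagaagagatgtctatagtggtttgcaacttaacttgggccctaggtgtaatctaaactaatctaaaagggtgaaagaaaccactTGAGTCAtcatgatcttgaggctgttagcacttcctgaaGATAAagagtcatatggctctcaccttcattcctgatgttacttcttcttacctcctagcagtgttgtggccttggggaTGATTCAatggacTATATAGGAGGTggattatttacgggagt
The letters TATATANGAGGT were taken from these sequences, as the longest run present in all 4 windows with at most 1 free position, so their presence in the 4 is no finding. They began 30, 27, 30 and 29 bases before the start of Prl4a1, Prl3d1, Prl2c3 and Prl7a1. Among 32851 RefSeq promoter windows of the same length, 13 held them, or 0.0396%. They were present in 10 of the 21 prolactin family genes of the table, among them Prl2c5, Prl3d2 and Prl7d1, and not in the windows of Prl2a1 and Prl3b1. GATAA was in all 4 windows and in 22.6% of all windows. TGANTCA was in the windows of Prl3d1, Prl2c3 and Prl7a1, and in 6.75% of all windows. The letters are a description of the windows and not evidence of binding.

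Prl4a1, the gene that chose the arrays, also had the largest fitted difference of all genes. Its processed Cy5 signal was 39800 scanner units on mutant E8.5 replicate 3, against 218 and 205 on replicates 1 and 2 of that group. On wild-type E9.5 replicate 3 it was 14000, against 191 and 725. On mutant E9.5 replicate 3 it was 8870, against 311 and 134. Wild-type E8.5, with no chosen array, gave 373, 817 and 1140, so its replicate 3 was the highest of the 9 others and still far below the 3. As log2 ratios, each chosen array exceeded the mean of its 2 group mates by 5.15, 3.47 and 3.23, and the fitted difference with group means in the model was 3.95 ± 0.28 (SE, 3 arrays against 9). In bulk RNA, more cells of a type and more RNA per cell cannot be told apart.

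Prl3d1, encoding placental lactogen I, followed the same arrays in a different order. Its Cy5 signal was 26800 on mutant E8.5 replicate 3, 11000 on wild-type E9.5 replicate 3 and 25300 on mutant E9.5 replicate 3. The other arrays read 709, 992 and 1340 in wild-type E8.5, 376 and 880 in mutant E8.5, 1180 and 2300 in wild-type E9.5, and 1030 and 999 in mutant E9.5. The chosen arrays did not overlap the rest, and the differences from group mates were 3.44, 1.89 and 3.00 on the log2 ratio scale, with a fitted difference of 2.78 ± 0.22 (SE). Its near copy Prl3d2 gave 3.47, 1.93 and 3.02.

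Prl2c3, a proliferin, was brightest on mutant E9.5 replicate 3. Its Cy5 signal there was 18600, against 640 and 720 on its group mates. It was 13200 on mutant E8.5 replicate 3, against 151 and 559, and 6660 on wild-type E9.5 replicate 3, against 537 and 945. Wild-type E8.5 gave 676, 745 and 1440. Differences from group mates in log2 ratio were 3.47, 2.11 and 3.51, in the order mutant E8.5, wild-type E9.5 and mutant E9.5, and the fitted difference was 3.03 ± 0.21 (SE). Other Prl2c3 probes disagreed in size, with 3.01, 1.76 and 2.93 for one and 1.13, 0.59 and 1.07 for another, which was well above background on the 3 chosen arrays and 0 of the others. The probe named for Prl2c5 gave 3.95, 2.30 and 3.65. The probes of Prl2c3, Prl2c5 and Prl3d2 each match 2 or 3 RefSeq genes, so which paralogue gave the signal is uncertain, and these genes are not independent of one another.

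Prl7a1, encoding prolactin-like protein E, was high on the same arrays and least so on wild-type E9.5 replicate 3. Its Cy5 signal was 2490, 614 and 2330 on mutant E8.5, wild-type E9.5 and mutant E9.5 replicate 3. The others read between 36.6 and 245, with the highest on wild-type E8.5 replicate 3, and 5 of the 9 were well above background. Its differences from group mates in log2 ratio were 2.25, 0.72 and 1.93, so on that scale it passed 2-fold on 2 of the 3 arrays. The offset of 50 used in background correction shrinks such ratios at dim spots. On wild-type E9.5 replicate 3 the Prl7a1 Cy5 signal of 614 stood against 99.8 and 177 on its mates. The plot of Cy5 signal by array shows these 4 probes.

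**Figure D1:**
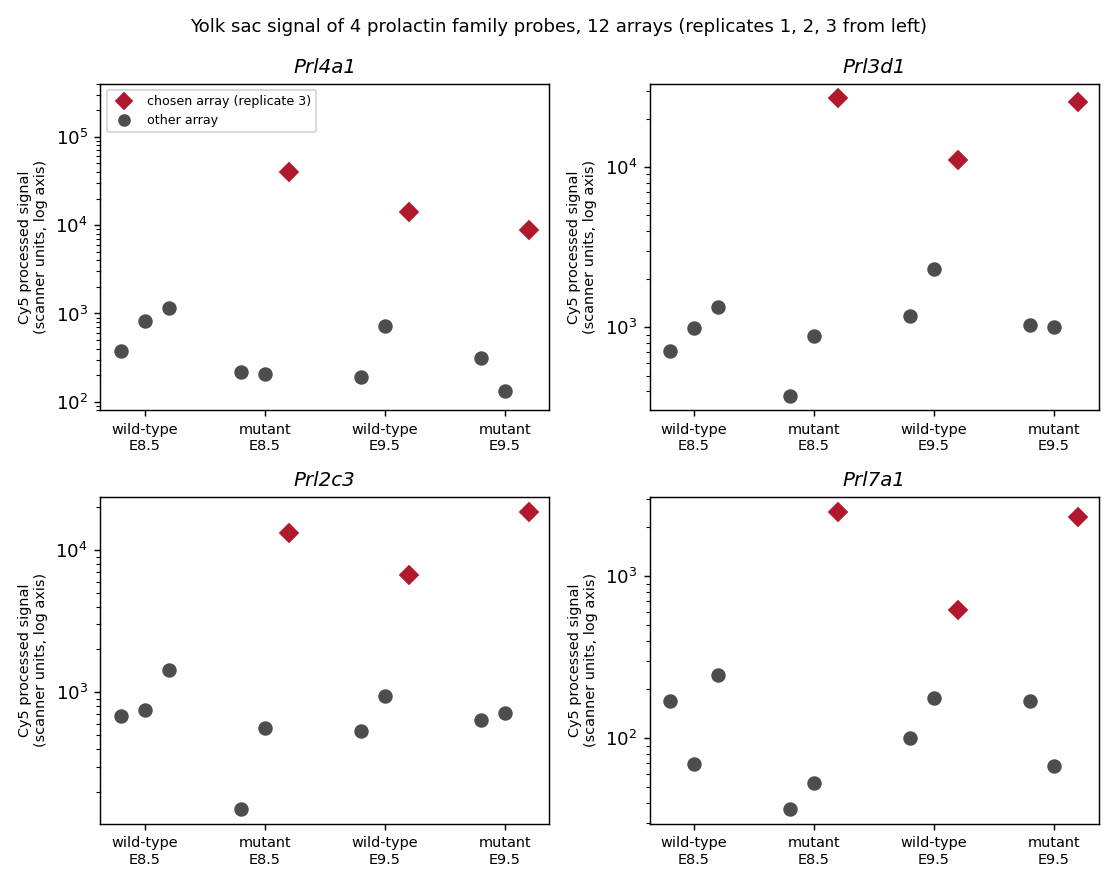
Processed Cy5 signal (scanner units, log axis) of the Prl4a1, Prl3d1, Prl2c3 and Prl7a1 probes on the 12 arrays, 1 point per array, by group, with replicates 1, 2 and 3 from left to right. Red diamonds are the 3 chosen arrays. They lie above all 9 other arrays in each panel, for example 8870 to 39800 against 134 to 1140 for Prl4a1.

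The reference channel was not constant at these spots. At Prl4a1 the processed Cy3 signal was 204, 63.8 and 29.8 on the chosen arrays, in the order mutant E8.5, wild-type E9.5 and mutant E9.5, and 9.47 to 42.5 on the others. At Prl3d1 it was 711, 364 and 783 against 59.5 to 122. At Prl3d2 it was 338, 140 and 274 against 9.15 to 11.1. The reference RNA was the same on every array. At Prl3d1 and Prl3d2 the processed Cy3 signal was above that of both group mates on every chosen array. At Prl4a1 this held on mutant E8.5 and wild-type E9.5 replicate 3. On mutant E9.5 replicate 3 it lay between the 10.4 and 42.5 of its mates, and was not well above background. At these 3 spots the log2 ratios were smaller than the Cy5 differences. In normalized log2 Cy5 alone, Prl3d1 exceeded its group mates by 4.43, 2.23 and 4.04, and by 0.99, 0.34 and 1.04 in log2 Cy3. At Prl2a1 Cy3 stayed at 9.49 to 10.8 on the chosen arrays and 12.4 to 19.1 on the others. At Prl7a1 and Prl2a1 the log2 ratios were instead slightly larger than the Cy5 differences, which were 2.11, 0.64 and 1.90 for Prl7a1 and 2.02, 1.41 and 0.70 for Prl2a1. The cause of the Cy3 signal was not tested.

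The choice of ratio changed these values. With the deposited log ratios on the log2 scale, Prl3d2 differed from its group mates by 1.13, -0.61 and -0.05, in place of 3.47, 1.93 and 3.02. Prl2c5 then gave 2.67, 0.99 and 1.07. Prl7a1 and Prl2a1, whose Cy3 stayed at background, gave larger values on that scale, 6.44, 2.61 and 5.14 for Prl7a1 and 7.94, 6.53 and 4.27 for Prl2a1. Ratios over a Cy3 signal at background have no measured denominator. Cy3 was well above background on 8 of the 9 other arrays at Prl3d1 and on 0 of them at Prl4a1, Prl3d2, Prl2c3, Prl2c5, Prl7a1 and Prl2a1.

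**Figure D2:**
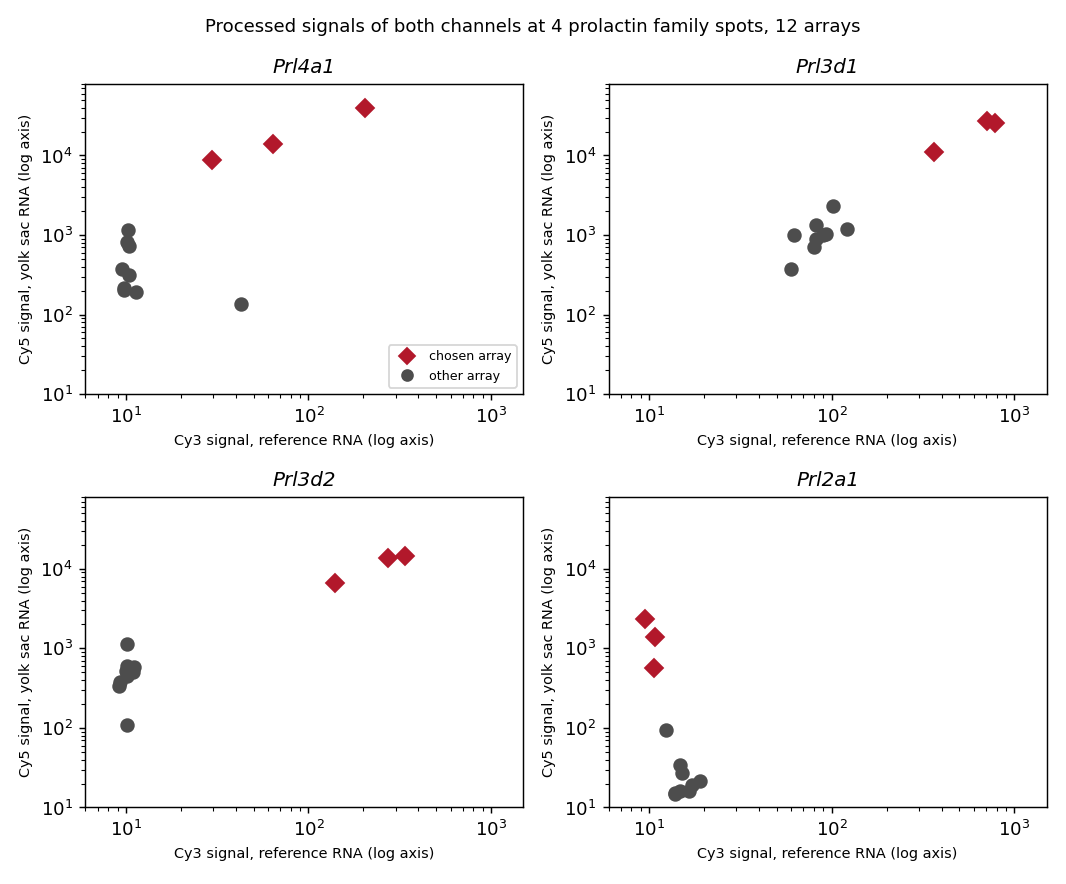
Processed Cy5 signal of yolk sac RNA against processed Cy3 signal of reference RNA (both scanner units, log axes) at 4 prolactin family spots, 1 point per array, with the 3 chosen arrays as red diamonds. Cy3 rises with Cy5 at Prl3d1 and Prl3d2, reaching 783 and 338, and stays between 9.49 and 10.8 on the chosen arrays at Prl2a1.

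Across all 14527 genes, 5 were at least 2-fold above their group mates on every chosen array, which is 0.0344% of genes, and 0 were at least 2-fold below. No test was made of this count. The 5 were Prl4a1, Prl2c5, Prl2c3, Prl3d2 and Prl3d1, all of the prolactin family and including the gene that chose the arrays. At 4-fold the count was 3 (Prl4a1, Prl2c5 and Prl2c3), and at 1.5-fold it was 8, adding Prl7a1, Prl2a1 and Sct. Without mutant E9.5 replicate 3 the count at 2-fold was also 8, adding Rhox9, Plet1 and Prl2a1. With the deposited log ratios it was 14, which kept 3 of the 5, and with log2 Cy5 alone it was the same 5 genes. In the fit, 8 genes had a difference of at least 2-fold (0.0551%) and 0 were lower by as much. These 8 were the 5 genes with Prl7a1, Prl2a1 and Plet1. A count by array puts this in scale, since 7 to 14 genes were at least 2-fold above their mates on each chosen array and 0 to 17 on each of the others.

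By role, the measured prolactin family separated into members that were high on all 3 arrays and members that were not. Of 26 listed genes 22 had a probe, and 10 passed the filter on low signal, which required Cy5 well above background on 3 of the 12 arrays. Prl2a1 and Prl7d1 passed it only through the chosen arrays, with 1 and 0 of the others well above background, so that their direction was fixed by the filter. Of the 10, 5 were at least 2-fold above their mates on each chosen array and 9 were above 0 on each, beside 13.6% of all genes above 0 on each. Their median fitted difference was 2.21, beside 0.001 over all genes. Without these 2 genes and Prl4a1, which chose the arrays, 7 members were left, of which 4 were at least 2-fold higher and 6 above 0 on each chosen array, with a median of 2.78. These values describe the chosen arrays and were not tested. The other 12 genes with a probe did not pass the filter.

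Prl2a1, encoding prolactin-like protein M, had a Cy5 signal of 2330, 1410 and 561 on the chosen arrays, in the order mutant E8.5, wild-type E9.5 and mutant E9.5. The other 9 read 14.9 to 92.9, and 1 of them was well above background. Prl7d1, the proliferin-related protein, read 90.9, 644 and 144 on the chosen arrays, and 14 to 76 on the others, none of them well above background. In normalized log2 Cy5, which includes the background offset of 50, its mean on the chosen arrays was at least 1.35-fold higher than on the others. That bound is not on the scale of the processed signals. At this probe Prl7d1 was thus brightest on wild-type E9.5 replicate 3. A second Prl7d1 probe was well above background on 0 of the chosen and 0 of the other arrays. Its differences from mates were 0, -0.02 and -0.05.

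Prl3b1, encoding placental lactogen II, set mutant E9.5 replicate 3 apart. Its Cy5 signal there was 1910, against 201 and 84.5 on its mates, whereas the other chosen arrays read 176 and 391. The remaining 7 arrays read 82.4 to 190. The difference from group mates was 1.59 on mutant E9.5 replicate 3, 0.39 on wild-type E9.5 replicate 3 and 0.02 on mutant E8.5 replicate 3.

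Prl8a2, the decidual member, did not follow the chosen arrays. Its log2 ratio was 2.36, 1.77 and 3.17 in wild-type E8.5, 0.69, 2.38 and 3.53 in mutant E8.5, 0.74, 2.47 and 1.45 in wild-type E9.5, and 0.86, 3.37 and 1.42 in mutant E9.5, for replicates 1, 2 and 3. Its difference from group mates was 2.00, -0.15 and -0.70 on the chosen arrays, and it was over 2-fold above its mates on wild-type E8.5 replicate 3. It was therefore high on both E8.5 arrays of scan set 3. On both E9.5 arrays of that set it was below the mean of its mates but lay between them. Its highest E9.5 value was on mutant replicate 2, which was not chosen.

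Several other genes known from trophoblast differed in size among the 3 arrays. Plet1, a surface protein of trophoblast progenitors, had Cy5 signals of 4320 on mutant E8.5 replicate 3, 3660 on wild-type E9.5 replicate 3 and 666 on mutant E9.5 replicate 3. The other arrays read 206 to 534. Its differences from group mates were 2.41, 2.00 and 0.58. The homeobox genes Rhox9 (1.07, 1.14 and 0.26) and Rhox6 (0.52, 0.92 and 0.16), both expressed in placenta, and the transcription factor Tfap2c (0.88, 1.02 and 0.15), needed in trophoblast, were likewise smallest on mutant E9.5 replicate 3, as was the keratin Krt19 (0.65, 0.55 and 0.03). All 5 were higher, relative to mates, on mutant E8.5 and wild-type E9.5 replicate 3 than on mutant E9.5 replicate 3. Gata2 (0.17, 0.74 and 0.04) and Plac1 (0.29, 0.86 and -0.10) were highest on wild-type E9.5 replicate 3 alone. These genes were picked after their values were seen, except Plet1 and Rhox9. Other members of the same lists were highest on mutant E9.5 replicate 3, among them Phlda2 (0.04, -0.10 and 0.25), Flt1 (-0.10, -0.01 and 0.17), Tead4 (0.02, 0.01 and 0.21), Ets2 (-0.05, 0.07 and 0.16) and Cdx2 (-0.05, -0.12 and 0.19). The median of the ectoplacental cone and spongiotrophoblast list was 0.13, 0.09 and 0.16 on the 3 arrays, so the list as a whole did not follow the order of Plet1.

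Genes of steroid synthesis had no common order over the 3 arrays. Star, which carries cholesterol into mitochondria, had log2 ratios of 0.53, 0.34 and 0.78 on the chosen arrays and -0.06 to 0.31 on the others. Its differences from mates were 0.58, 0.20 and 0.76. Cyp11a1, which makes the first steroid from cholesterol, gave 0.32, 0.23 and 0.45, with Cy5 well above background on all 3 chosen arrays and 2 of the 9 others, so it passed the filter only through the chosen arrays. Both were highest on mutant E9.5 replicate 3, whereas Hsd3b6 (0.40, 0.09 and 0.00), Cyp17a1 (0.25, 0.10 and 0.08), Fdx1 (0.20, 0.10 and 0.07) and Fdxr (0.31, -0.04 and 0.05) were highest on mutant E8.5 replicate 3. Of 9 measured steroid genes 5 were above 0 on all 3 arrays, beside 13.6% of all genes, and their median fitted difference was 0.13. Without Cyp11a1 these were 4 of 8 and 0.12.

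**Figure D3:**
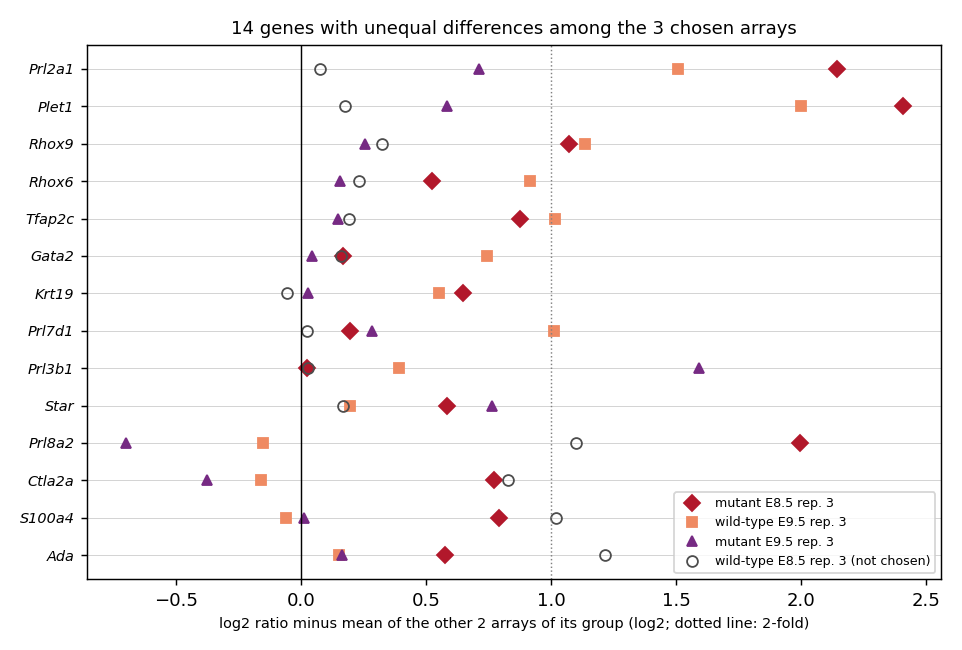
Difference in log2 ratio between each array and the mean of the other 2 arrays of its group (log2), for 14 genes on the 3 chosen arrays (filled symbols) and on wild-type E8.5 replicate 3 (open circles). Plet1 lies at 2.41 and 2.00 on 2 chosen arrays and at 0.58 on mutant E9.5 replicate 3, Prl3b1 is high on mutant E9.5 replicate 3 alone, and Prl8a2 is high on both E8.5 arrays.

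Transcripts that define other trophoblast types were well above background on few arrays or none. Tpbpa, the marker of spongiotrophoblast, was well above background on 1 of the 3 chosen arrays and 1 of the 9 others. Ascl2 and Esrrb were well above background on no array, Eomes on 1 of the others only, Elf5 on 1 chosen array only, and Gcm1, the syncytiotrophoblast factor, on 1 chosen and 1 other. Of 16 probes for pregnancy-specific glycoproteins and CEACAMs, 1 was well above background on any chosen array and 0 on any other. The medians of the ectoplacental cone and spongiotrophoblast list (0.06, 7 measured), the labyrinth and syncytiotrophoblast list (0.01, 9 measured) and the list of trophoblast transcription factors (0.10, 13 measured) were small beside that of the prolactin family. Of these members 2, 2 and 7 were above 0 on all 3 chosen arrays, and 0, 1 and 0 below, beside 13.6% of all genes above 0 and 11.6% below. The 7 were Tfap2c, Gata2, Gata3, Pparg, Hand1, Sfmbt2 and Tead4, with fitted differences of 0.08 to 0.68.

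Lists for neighbouring tissues had medians close to that of all genes. The decidual stroma list had a median difference of 0.03 over 12 measured genes, with 1 above 0 and 2 below 0 on all 3 arrays. Its mean log2 ratio was -0.62 to -0.59 on the chosen arrays and -0.85 to -0.43 on the others. Medians were similar for natural killer cell and leukocyte genes (0.02, 5 measured), uterine epithelium (-0.07, 2 measured) and parietal endoderm (0.05, 14 measured). Of these, 1, 0 and 4 were above 0 on all 3 arrays and 1, 0 and 0 below, beside 13.6% and 11.6% of all genes. In the leukocyte list the granzyme gene Gzmd was above (0.23, 0.30 and 0.08) and Lyz2 below (-0.06, -0.06 and -0.12). Parietal endoderm averaged -0.66 to -0.51 on the chosen arrays and -0.79 to -0.55 on the others. Visceral endoderm had a median of 0.02 over 23 genes, endothelium 0.04 over 15, mesenchyme and mesothelium -0.05 over 11, and erythroid cells -0.04 over 16. The erythroid list differed among the chosen arrays, with a median of 0.16 on mutant E8.5 replicate 3 and -0.28 on mutant E9.5 replicate 3. Besides the prolactin family, the highest medians were those of simple epithelial keratins (0.21, 4 measured), placental serpins (0.19, 3 measured) and steroid synthesis. Of the serpins, Serpinb9d passed the filter only through the chosen arrays, and without it the median was 0.17 over 2 genes. The medians of the other lists lay between -0.03 and 0.09, namely placental cathepsins and their inhibitors (0.08), placental imprinted genes (0.03), invasion and matrix proteases (-0.03), endocycle regulators (0.03), embryonic heart (0.04), embryonic neural tissue (-0.01), the caudal embryo (0.01) and hypoxia and glycolysis (0.09).

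**Figure D4:**
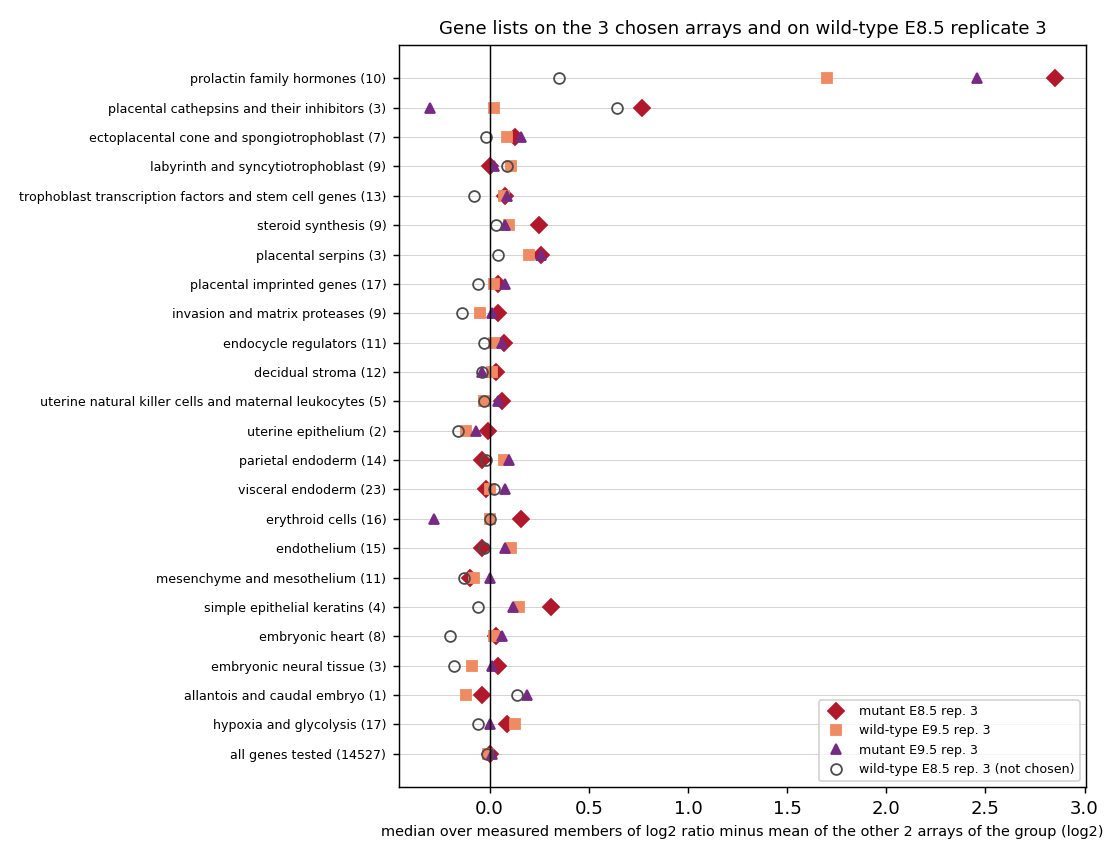
Median over the measured members of each gene list (number in brackets) of the difference in log2 ratio between an array and the mean of the other 2 arrays of its group (log2), for the 3 chosen arrays and wild-type E8.5 replicate 3. The prolactin family, Prl4a1 included, lies at 2.85, 1.70 and 2.46 on the chosen arrays and at 0.35 on wild-type E8.5 replicate 3, and most other lists lie near 0.

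The 20 genes with the largest smallest difference over the chosen arrays, a choice that fixes their direction, also held 8 genes of other functions, with differences of 0.24 to 0.54. Med4, a subunit of the Mediator complex, differed from its mates by 0.40, 0.49 and 0.50, and its log2 ratios of 0.77 to 0.93 did not overlap the 0.20 to 0.50 of the other arrays. Eif3k, a translation initiation subunit, gave 0.33, 0.51 and 0.46. Atp5g3, of the mitochondrial ATP synthase, gave 0.42, 0.31 and 0.36, and Dazap2 0.33, 0.41 and 0.30. Trpv2, a cation channel, was less even, with 0.52, 0.54 and 0.26. Emc9, Sap30l and Commd10 gave smallest differences of 0.24 to 0.28. On wild-type E8.5 replicate 3 these 8 genes differed from their mates by -0.15 to 0.03. Ptma also belonged to the 20 (0.25 to 0.37), but its other probe gave -0.23 to -0.20, so its probes disagree in direction. Over all genes, 78 had all 3 chosen arrays above the other 9, or 0.537%, and 29 had all 3 below, or 0.2%.

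The remaining members of those 20 were Sct, encoding the hormone secretin (1.66, 0.67 and 0.61), and Lgals3, encoding galectin 3 (1.13, 0.59 and 0.26). Both overlapped the other arrays in log2 ratio. At the low end no gene fell far. The 10 lowest (C5ar2, Mapk8, Arl1, Cnpy4, Adgrl1, Mat2b, A630012P03Rik, Nr5a2, 2610301B20Rik and Rpsa) had fitted differences of -0.25 to -0.16, in a direction fixed by their choice. Of these Mapk8 and Adgrl1 did not overlap the other arrays, beside 0.2% of all genes with all chosen arrays below. For Adgrl1 the nearest values of the chosen and other arrays were both -2.08 after rounding. With the scan set as a block, Cnpy4 (0.06), Adgrl1 (0.04) and Nr5a2 (0.02) no longer lay below 0.

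**Figure D5:**
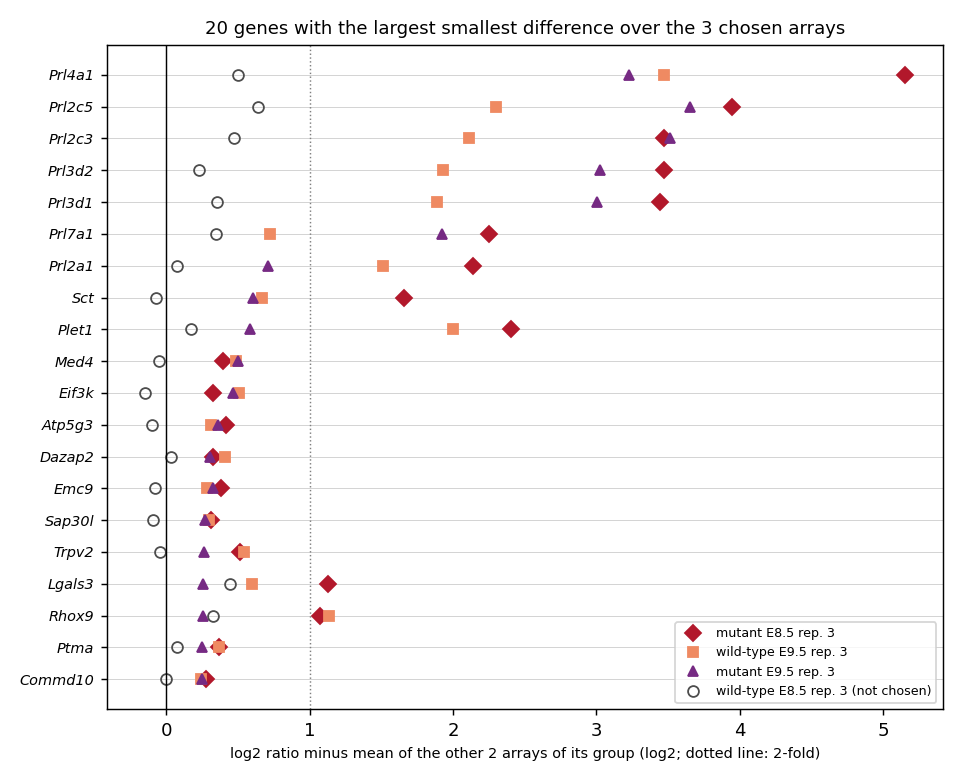
Difference in log2 ratio from the mean of the other 2 arrays of the group (log2) for the 20 genes whose smallest difference over the 3 chosen arrays was largest. The 5 prolactin family genes at the top lie at 1.89 or more on every chosen array, and wild-type E8.5 replicate 3 (open circles) lies at 0.64 or less for them.

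Wild-type E8.5 replicate 3 was scanned with the chosen arrays and was not high in Prl4a1. As a single array, it cannot tell the scan set apart from its group or sample. It was at least 2-fold above its mates for 7 genes, or 0.0482%, and for none of the 4 markers, which differed by 0.50 (Prl4a1), 0.35 (Prl3d1), 0.47 (Prl2c3) and 0.34 (Prl7a1). The 7 included Prl8a2, Ada, an enzyme abundant at the implantation site, S100a4, a calcium-binding protein, and the heat shock gene Hspa1a. The list shared 1 gene with that of mutant E8.5 replicate 3 (Prl8a2, 1 of 13), 1 with that of wild-type E9.5 replicate 3 (Btbd9, 1 of 14) and 0 with that of mutant E9.5 replicate 3 (0 of 7). Ada was 1.22 and S100a4 1.02 above mates on wild-type E8.5 replicate 3, and 0.58 and 0.79 on mutant E8.5 replicate 3. On both E9.5 arrays of that set Ada was 0.15 and 0.16, and S100a4 -0.06 and 0.01. The protease inhibitor Ctla2a gave 0.83 on wild-type E8.5 replicate 3 and 0.77, -0.16 and -0.37 on the chosen arrays. With the scan set as a block, estimated against this single array, the fitted differences were 3.45 ± 0.56 (SE) for Prl4a1, 2.42 ± 0.41 for Prl3d1, 2.56 ± 0.41 for Prl2c3 and 1.29 ± 0.39 for Prl7a1.

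The chosen arrays overlapped in their 2-fold lists mainly through the prolactin family. Mutant E8.5 replicate 3 (13 genes above its mates) and wild-type E9.5 replicate 3 (14 genes) shared 8, the 5 prolactin genes with Prl2a1, Plet1 and Rhox9. Mutant E9.5 replicate 3 (7 genes) shared 6 with the first and 5 with the second, and its only unshared gene was Prl3b1. Xist, transcribed from the inactive X chromosome, differed from its mates by -1.29, 1.65 and -0.01 on the chosen arrays, in no common direction.

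The design asked whether the Arid1a mutation and stage change the yolk sac transcriptome, and the chosen arrays sit in 3 of its 4 groups. With the chosen arrays as a term in limma, 10 prolactin family genes gave no adjusted p under 0.05 (Benjamini-Hochberg over 14527 genes) in any of the 4 genotype and stage contrasts. The smallest was 0.14, for Prl3b1 between stages in the mutant, with 1 unadjusted p under 0.05 over the 4 contrasts. The term was defined by Prl4a1, 1 of the 10, and it took up the excess of genes high on the same arrays. For such genes these p-values are no test of genotype or stage. With the term, Prl4a1 was -0.25 ± 0.34 (SE) in the mutant at E8.5. Without the term there were also 0 calls, the smallest adjusted p was 0.278, and 0 unadjusted p-values were under 0.05. With the 3 arrays left out there were 0 calls, the smallest adjusted p was 0.132 and 8 unadjusted p-values were under 0.05, of which 5 were for mutant minus wild type at E8.5. In those 9 arrays Prl4a1 was -0.65 ± 0.22 (SE) in the mutant at E8.5 and Prl2c5 -0.82 ± 0.20. The choice by Prl4a1 had removed the high mutant E8.5 array and no wild-type E8.5 array, and Prl2c5 was high on the same arrays. It thus bears on these signs, SEs and unadjusted p-values, which are no test of genotype for these genes. Without the term, the same Prl4a1 contrast was 1.06 ± 1.25, so its sign differed with and without mutant E8.5 replicate 3. The residual SD of Prl4a1 was 2.04 without the term and 0.55 with it, which the choice of arrays brings about.

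Over all genes, the term changed the genotype calls at E8.5 more than those at E9.5. The place of the chosen arrays bears on this. At E8.5 the mutant alone holds a chosen array, so the term shifts the estimates. At E9.5 each genotype holds a chosen array, so for genes without missing values the term changes the SE and not the estimate. At E8.5, 144 genes passed with it (69 higher in the mutant, 0.475%, and 75 lower, 0.516%), 200 without it, and 138 in both. At E9.5, 276 passed with it (128 higher, 0.881%, and 148 lower, 1.02%), 273 without it, and 255 in both. With the 3 arrays left out the counts were 86 and 124, on fewer samples. The E8.5 count moved by over 1.5 times when wild-type replicate 3 (74), mutant replicate 1 (90) or mutant replicate 2 (55) was left out. The E9.5 count moved as far without wild-type replicate 1 (138), 2 (132) or 3 (167) and without mutant replicate 2 (147) or 3 (174).

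Of 69 measured genes in the trophoblast lists, 0 were higher and 1 lower in the mutant at E8.5, beside 0.475% and 0.516% of all genes, and 0 were higher and 2 lower at E9.5, beside 0.881% and 1.02%. Cdx2, a homeobox factor of trophoblast stem cells and of the caudal embryo, was lower in the mutant by 0.42 ± 0.07 (SE, limma adjusted p = 0.0136) at E8.5 and by 0.39 ± 0.07 (adjusted p = 0.0102) at E9.5. Within the scan sets its mutant minus wild-type difference was -0.31, -0.41 and -0.54 at E8.5 and -0.44, -0.55 and -0.18 at E9.5. It was thus lower in the mutant in all 6 comparisons. Peg10, an imprinted gene needed for the placenta, was lower by 0.35 ± 0.07 (adjusted p = 0.0214) at E9.5, and its adjusted p was 0.171 with the 3 arrays left out. Dlk1, an imprinted growth regulator, was 0.33 ± 0.08 higher at E8.5 with the term (adjusted p = 0.0913) and 0.34 ± 0.08 without it (adjusted p = 0.0444).

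Between stages the call of some genes differed with and without the term. Of the 69 genes, 17 rose and 3 fell from E8.5 to E9.5 in the wild type, beside 10.9% and 9.18% of all genes, and 14 rose and 2 fell in the mutant, beside 10.2% and 9.8%. In the mutant, Rhox9 was 0.55 ± 0.15 higher at E9.5 (limma adjusted p = 0.0202) with the term and 0.55 ± 0.29 (adjusted p = 0.212) without it. Rhox6 was 0.57 ± 0.16 higher (adjusted p = 0.0255) with the term and 0.57 ± 0.23 (adjusted p = 0.0951) without it. Both mutant groups hold a chosen array, so the term changed the SE of these genes and not the estimate. Rhox9 was named because it was high on the chosen arrays, so its smaller SE with the term is not an independent result. With the scan set as a block both genes passed with the term (adjusted p = 0.0149 for Rhox9 and 0.00703 for Rhox6) and without it (0.0232 and 0.00735). Within scan sets Rhox9 had stage differences of 0.80, 0.85 and 0.01. With the 3 arrays left out its adjusted p was 0.00133. In the wild type Rhox9 was 0.84 ± 0.16 higher with the term (adjusted p = 0.00224) and 1.12 ± 0.29 without it, with 1.66 in scan set 3. Esx1, a placental homeobox gene, and Gjb2, a gap junction protein, rose at both settings in both genotypes, by 0.84 to 1.11. Hand1, needed for giant cells, fell by 0.36 ± 0.07 (adjusted p = 0.0038) in the mutant.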

How the data were processed

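The deposited files hold, per the file headers, 1 Agilent 2-colour array each: mean and median background intensity of both channels, intensity values the authors had processed with Feature Extraction 9.5.1.1, the log10 ratio of processed Cy5 over Cy3, and spot flags. From the deposited intensity values, spots over 20 units below local background were set to missing (6 spots, all on mutant E9.5 replicate 3), background was corrected with normexp (offset 50), and log2 ratios were normalized within arrays by loess in limma 3.58.1 (R 4.3.3). The offset shrinks the log2 ratios of dim spots, and the main fold counts use these ratios. Outlier spots were set to missing. Probes with Cy5 well above background on 3 or more arrays were kept, and the brightest probe on average stood for each gene. This gave 14527 genes with 34 missing values. Limma was fitted to 12 arrays with 4 group means and an indicator of the 3 chosen arrays (7 residual degrees of freedom). The fixed design read that indicator from the deposited ratio above 3, which 11 arrays pass. The loess ratio, which picks the 3 named arrays, was used in its place.

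The arrays, members and gene lists were chosen with earlier results of these data known. Genes named are the 4 markers, the 20 genes with the largest smallest difference over the chosen arrays, the 10 lowest, list members past the thresholds and examples stated as picked afterwards. Same-numbered arrays were scanned together. Their residuals from a fit of 4 group means correlated with r of -0.01 to 0.41, against -0.40 to 0.12 for other numbers. Residuals balance out within each group, so these ranges are not independent of each other. The number of arrays limits the precision. Count and fit steps were tested on simulated data. Alternatives covered ratio, centring, filter, probe choice, fold, term, block and left-out arrays.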

Additional observations from a re-analysis of the deposited data

How the results depend on the processing

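The count of genes at least 2-fold above their mates on all 3 chosen arrays was 5 with median centring, either other filter, the mean of probes and, as an alternative added after seeing the data, log2 Cy5 alone. It was 8 at 1.5-fold, 3 at 4-fold and 14 with the deposited log ratios, and 5 to 8 with 1 array left out. The count below was 0 under each of these except the deposited log ratios (2). Fitted differences of at least 2-fold numbered 8, 33 with the deposited log ratios, and 8 to 11 with 1 array left out. Genes 2-fold above mates on wild-type E8.5 replicate 3 numbered 7, 187 with the deposited log ratios, 13 with median centring, and 6 to 12 with 1 array left out. The cause of these shifts was not tested.

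For mutant minus wild type at E8.5 the calls numbered 5 with median centring (0 higher), 86 with the 3 arrays left out, 294 with a replicate block and no indicator, and 55 to 170 with 1 array left out. At E9.5 they were 118 with the deposited log ratios, 17 with median centring (3 higher), 124 with the 3 arrays left out and 132 to 349 with 1 left out. For E9.5 minus E8.5 they were 991 with median centring in the wild type (94.8% higher, 54.2% by loess) and 1727 to 2926 with 1 array left out. In the mutant they were 1371 with median centring (95.7% higher, 51.1% by loess), 1301 with the 3 arrays left out and 1698 to 3304 with 1 left out. Median centring moved the median stage difference of all genes to 0.104 (wild type) and 0.136 (mutant). With the replicate block beside the indicator the calls were 140, 355, 3048 and 3421 for these contrasts, and 10 genes had a fitted difference of at least 2-fold. No fitted difference of Prl3d1, Prl2c3 or Prl7a1 changed sign under any alternative run. That of Prl4a1 lay between 3.35 and 4.31, and its sign was set by the choice of arrays, which every alternative kept.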
